A study of Homo sapiens with 18 samples.

Results

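Chromatin accessibility was compared directly between G-K562 and B-K562 cells, which differ in the form of BASP1 that they express. The members are the open-chromatin regions of the 6 ATAC-seq libraries of these lines, 3 per line. Overlapping peak intervals of the 6 libraries were merged into 74279 regions, against 85549 regions when all 9 ATAC-seq libraries of the series are merged, of which 51319 were tested because 3 or more of the 6 libraries had a peak there. The other 22960 regions had a peak in fewer than 3 libraries and were not compared. K562 is an erythroleukaemia cell line derived from chronic myelogenous leukaemia that carries the BCR-ABL1 fusion and expresses embryonic and fetal globins. All lines are stable transfectants of K562 that were selected as a pool with G-418: V-K562 holds the empty vector, B-K562 wild-type BASP1 (wtBASP1), and G-K562 BASP1-G2A. Each construct is represented by 1 such pool, so an effect of the BASP1 form and any other difference between the 2 pools cannot be told apart. The 3 libraries of a line are biological replicates of that pool, and the cells were treated with DNase before they were harvested and frozen. V-K562 entered no test and is given as a further level beside the results.

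BASP1 is a transcriptional corepressor of WT1 that carries a myristoyl group, a fatty acid attached to the glycine that follows the initiator methionine. The G2A exchange replaces that glycine by alanine, which cannot be myristoylated, and the lipid-dependent contacts of BASP1 are lost. In ATAC-seq the Tn5 transposase inserts adapters where DNA is not covered by nucleosomes, so that active promoters and enhancers give peaks of reads. In erythroid cells many enhancers are bound by GATA1, which recognises the letters AGATAA, together with TAL1, LMO2 and LDB1, and by KLF1 at CACCC elements. AP-1 dimers of FOS and JUN proteins bind TGAGTCA and open chromatin downstream of growth factor and stress signals.

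The series also holds RNA-seq of the same lines, which the choice of regions did not use. BASP1 RNA was at 6965, 6730 and 6294 normalised counts in B-K562, at 9323, 12538 and 8124 in G-K562, and at 7, 5 and 7 in V-K562. The lines with a BASP1 construct thus expressed it, at a higher level in G-K562 (log2 difference 0.56 ± 0.14 SE, limma adjusted p = 0.0019). By the thresholds used for the regions, 17.4% of the 15521 genes tested had higher RNA in G-K562 and 12.5% lower RNA, and the RNA counts given beside the gene groups are to be read against these shares. Of the 11 K562 markers fixed for the check, all 11 were detected in every line, with sums of 225271 to 229018 in B-K562, 139626 to 154905 in V-K562 and 85535 to 91603 in G-K562. Most of the sums in B-K562 and V-K562 came from the globin genes HBE1, HBG2 and HBG1. By marker, the log2 difference, G-K562 minus B-K562, ran from -3.54 for HBG1 to 0.01 for ABL1, with -0.24 for BCR and -0.33 for TFRC. Of 9 markers of other cell types, MS4A1 was at 0 in all libraries, and the sums were 3910 to 4048 in B-K562, 4574 to 4684 in V-K562 and 6467 to 7140 in G-K562, mostly from LYZ and EPCAM. The 6 ATAC-seq libraries had 47111 to 51199 peaks and a median summit pileup of 46.0 to 47.0 tags, after the authors had sampled all libraries to an equal number of tags.

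A region's value in a library is its highest summit pileup, the number of tags stacked at the top of the peak. The G-K562 and B-K562 values were scaled to each other on the regions with a peak in all 6 libraries and compared with limma on a log2 scale. A region was called at an adjusted p of at most 0.05 and a log2 difference of at least 1 in size. By this rule 2837 regions (5.53% of those tested) had a higher value in G-K562, and 5586 (10.9%) a lower value. In bulk libraries, fewer cells with an open region and less opening in every cell cannot be told apart. Regions with more accessible chromatin in G-K562 made up 33.7% of the calls. That split depends on the scaling: without it the median of all regions moved up by 0.19, and 4183 regions were higher and 4517 lower, or 48.1% of calls higher. Differences of regions with GATA letters and of zinc finger genes on chromosome 19 are therefore also given relative to the median of all regions. The counts of the other gene groups hold for the scaling used and move with it. Without it, erythroid transcription factor genes had 11 lower regions in place of 14, and HOX genes 5 higher in place of 2.

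A library without a called peak has no deposited value and was set to a floor of 17 tags, the 5th percentile of all summit pileups. Of the called regions, 1248 of the higher had a peak in all 3 G-K562 libraries and no B-K562 library, and 2478 of the lower had a peak in all 3 B-K562 libraries and no G-K562 library. Such a region passed the filter through the line in which it is open, and its fitted difference depends on the floor. The absence of a peak does not show fewer than 17 tags. Where a line had a peak in only 2 of its 3 libraries, the mean of the 2 values had a median of 24.5 tags over 5724 such regions in B-K562 and of 25 tags over 5219 in G-K562, and it reached 60 tags or more in 157 and 170 of them. Among the 29250 regions with a peak in all 6 libraries, where every value is measured, 788 were higher (2.69%) and 1739 lower (5.95%). The scaled values of the lines did not overlap in 787 of these 788 and 1738 of these 1739 regions, which the call itself nearly fixes; over all 29250 regions they lay apart with G-K562 higher in 6423 (22.0%) and with G-K562 lower in 6250 (21.4%).

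**Figure D1:**
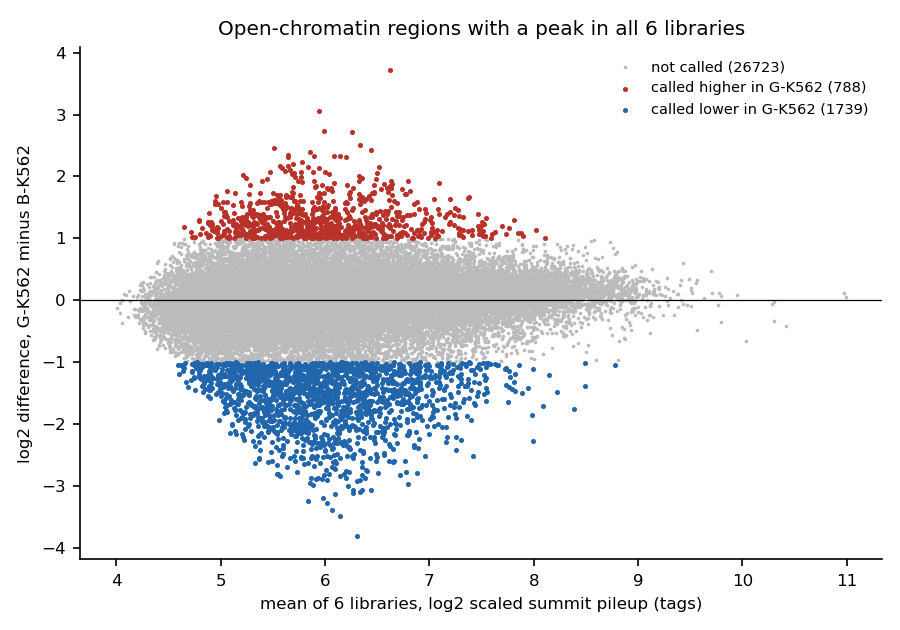
Each point is a region with a peak in all 6 libraries, with the mean log2 scaled summit pileup of the 6 libraries on the x axis and the log2 difference, G-K562 minus B-K562, on the y axis. The 788 regions called higher are red and the 1739 called lower are blue, and the extremes lie at 3.72 and -3.80.

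The sequences of the regions with the largest measured differences are shown first. They are the 300 bases around the summit of 3 of the regions with the largest differences among those with a peak in all 6 libraries, followed by 3 transcription start regions, and were read from GRCh38 on the plus strand. Capitals mark matches, on either strand, to the letters AGATAA for GATA factors, TGAGTCA for AP-1, TGTGGTT for RUNX, AGGAAGT for ETS and GGAATG for TEAD factors. The letters CCACACCC for KLF factors, CAGGGGGCG for CTCF and the octamer ATGCAAAT were searched too and are not in these windows. Shorter CACCC runs were not searched and do occur in them. Other letters searched, among them TAATTA, which the GPR132 window holds, are not marked. Of all regions tested, these letters were found in 21.0%, 15.3%, 7.62%, 10.4% and 14.2% for the marked motifs in that order. A match is a description of the letters and not evidence of binding. The region with more accessible chromatin in G-K562 lies upstream of SCN9A and holds a GATA match.

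SCN9A, chr2:166376043-166376342: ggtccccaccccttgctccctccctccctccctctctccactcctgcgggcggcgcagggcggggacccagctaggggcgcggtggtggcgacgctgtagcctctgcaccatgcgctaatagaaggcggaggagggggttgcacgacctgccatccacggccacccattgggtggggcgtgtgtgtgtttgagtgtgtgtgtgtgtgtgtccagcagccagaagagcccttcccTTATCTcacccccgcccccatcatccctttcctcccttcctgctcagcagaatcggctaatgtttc

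The 2 regions with less accessible chromatin in G-K562 lie in introns of CDHR3 and SLC9A9. The SLC9A9 window holds a GATA match and the CDHR3 window holds ETS, RUNX and AP-1 matches and no GATA match.

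CDHR3, chr7:106018699-106018998: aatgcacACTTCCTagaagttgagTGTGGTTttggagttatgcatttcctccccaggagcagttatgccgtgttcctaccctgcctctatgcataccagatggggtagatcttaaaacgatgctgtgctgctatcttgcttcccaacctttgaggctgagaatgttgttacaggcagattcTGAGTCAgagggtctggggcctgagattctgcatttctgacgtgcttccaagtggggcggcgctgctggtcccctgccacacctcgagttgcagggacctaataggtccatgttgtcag
SLC9A9, chr3:143283435-143283734: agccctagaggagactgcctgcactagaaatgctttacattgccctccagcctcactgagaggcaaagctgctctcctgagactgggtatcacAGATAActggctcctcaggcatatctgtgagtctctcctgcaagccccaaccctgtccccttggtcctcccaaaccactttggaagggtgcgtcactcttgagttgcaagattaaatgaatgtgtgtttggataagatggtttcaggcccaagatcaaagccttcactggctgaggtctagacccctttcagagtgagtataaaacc

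The start regions are those of GPR132, higher in G-K562, and of DAB2 and RHCE, both lower. The RHCE window holds a GATA match, the DAB2 window a TEAD match, and the GPR132 window an ETS and a RUNX match.

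GPR132, chr14:105065355-105065654: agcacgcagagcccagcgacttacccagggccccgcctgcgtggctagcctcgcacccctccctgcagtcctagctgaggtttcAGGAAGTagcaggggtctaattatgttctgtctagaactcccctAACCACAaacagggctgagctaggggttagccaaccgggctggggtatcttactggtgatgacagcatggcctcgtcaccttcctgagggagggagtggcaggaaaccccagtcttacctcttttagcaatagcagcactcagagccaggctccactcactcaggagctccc
DAB2, chr5:39424875-39425174: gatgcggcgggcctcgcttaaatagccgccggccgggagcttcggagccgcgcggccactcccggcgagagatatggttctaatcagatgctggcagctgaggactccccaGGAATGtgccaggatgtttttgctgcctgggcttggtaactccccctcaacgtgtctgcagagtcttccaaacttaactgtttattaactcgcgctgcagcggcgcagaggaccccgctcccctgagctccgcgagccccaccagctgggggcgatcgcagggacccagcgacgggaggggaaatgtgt
RHCE, chr1:25420747-25421046: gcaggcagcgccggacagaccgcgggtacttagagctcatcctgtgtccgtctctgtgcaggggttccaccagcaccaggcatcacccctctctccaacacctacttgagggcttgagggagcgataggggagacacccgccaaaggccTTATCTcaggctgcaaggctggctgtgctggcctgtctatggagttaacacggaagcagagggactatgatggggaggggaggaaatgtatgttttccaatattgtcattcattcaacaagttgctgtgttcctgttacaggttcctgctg

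The largest measured rise was upstream of SCN9A (chr2:166375744-166376595), which encodes a voltage-gated sodium channel. Its summit pileup was 21, 24 and 30 tags in B-K562 and 387, 392 and 396 tags in G-K562, with V-K562 between them at 122, 151 and 145. The log2 difference was 3.72 ± 0.15 (SE, adjusted p = 4.2e-05, limma). SCN9A RNA rose with it, from 35.9 ± 4.8 (SD, n = 3) to 1337 ± 227 normalised counts.

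An intron of ERN1, which encodes the endoplasmic reticulum stress sensor IRE1, held 27, 25 and 30 tags in B-K562 and 205, 182 and 268 in G-K562 (2.72 ± 0.16, adjusted p = 6.9e-05). ERN1 RNA was higher in G-K562 by 2.39 on the log2 scale. The start of GPR132, a G protein-coupled receptor, held 26, 30 and 38 tags against 243, 167 and 228 (2.51 ± 0.19, adjusted p = 0.00014), and its RNA went from 20.3 ± 7.1 to 471 ± 104. In V-K562 this start held 33 to 43 tags, close to B-K562, while at ERN1 the V-K562 values of 102 to 132 lay between the lines. A region near QSOX2, 1625 bp from the start of its neighbour LHX3, rose by 2.44 ± 0.17. Further large rises lay on chromosomes 7 and 10, more than 5 kb from any gene, with differences of 2.73 and 2.46.

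The largest measured fall was in an intron of CDHR3 (chr7:106018585-106019183), a cadherin gene, 3725 bp from the nearest protein-coding start. Its pileup was 269, 278 and 291 tags in B-K562 and 21, 24 and 22 in G-K562, with V-K562 at 202, 236 and 223. The log2 difference was -3.80 ± 0.12 (adjusted p = 3.8e-05). An intron of SLC9A9, a sodium-proton exchanger gene, held 228, 261 and 198 tags in B-K562, 22, 28 and 17 in G-K562, and 90, 112 and 83 in V-K562 (-3.49 ± 0.19, adjusted p = 5.8e-05). CDHR3 RNA was low in both lines and lower in G-K562 (26.8 ± 4.1 against 1.7 ± 0.6), and SLC9A9 RNA was at most 7 normalised counts in every library.

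Intronic regions of AAAS (a nuclear pore protein gene) and SLC7A8 (an amino acid transporter gene) fell by 3.38 and 3.19 on the log2 scale. A region in WHSC1, the H3K36 methyltransferase gene also named NSD2, lay 4492 bp from the nearest start and fell by 3.12, and an exonic region of RHBDL2 fell by 3.27. At AAAS the B-K562 values of 194 to 216 tags stood against 18 to 26 tags in G-K562, and at SLC7A8 167 to 192 against 17 to 26. SLC7A8 RNA fell by 1.35 on the log2 scale, that of AAAS by 0.68, and that of WHSC1 by 0.15, the last 2 below the size threshold. The regions of the plot of largest differences by library were chosen by size among called regions, which nearly fixes that the lines lie apart. Over all 29250 regions with a peak in all 6 libraries, scaled values lay apart with G-K562 higher in 22.0% and lower in 21.4%. In each of the plotted regions the 3 values of B-K562 did not overlap the 3 values of G-K562. In every one of them except the chromosome 10 region, the V-K562 values lay between the lines or overlapped B-K562; at the chromosome 10 region only 1 V-K562 library had a peak, of 21 tags.

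**Figure D2:**
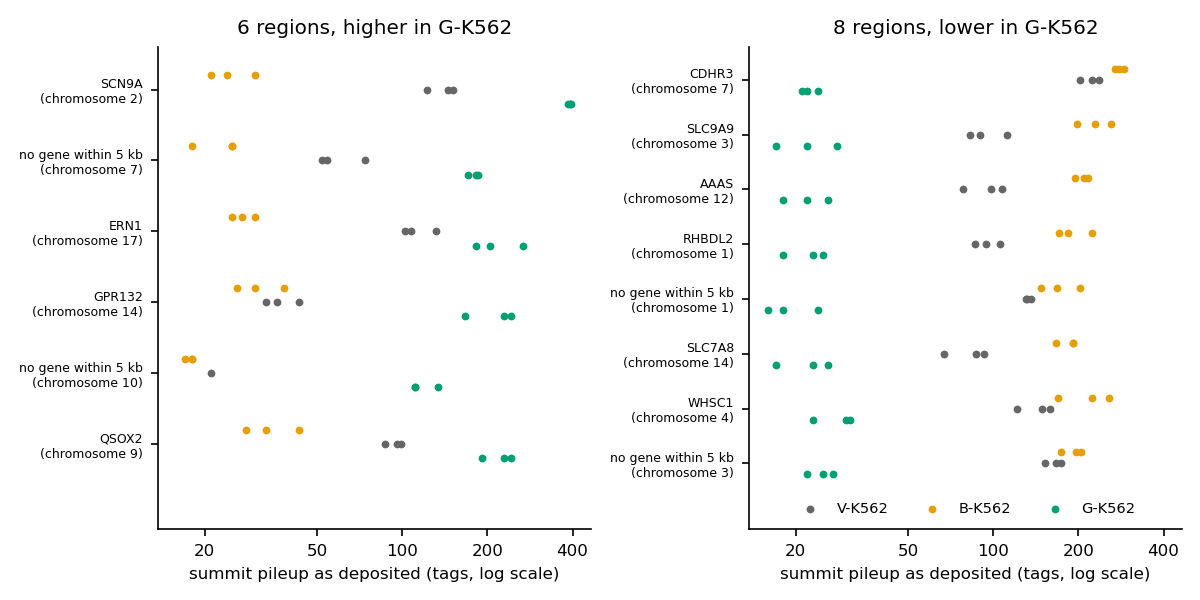
Summit pileup in tags as deposited, on a log axis, for each V-K562, B-K562 and G-K562 library at 6 of the regions with the largest rises (left) and the 8 regions with the largest falls (right) among those with a peak in all 6 libraries. In the left panel the G-K562 points lie above 100 tags and the B-K562 points below 50; in the right panel the order is turned.

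Other regions had a high pileup in one line and no called peak in the other. An intronic region of TANGO2 had 714, 602 and 570 tags in B-K562, 265 to 299 in V-K562 and no peak in any G-K562 library. TANGO2 RNA fell from 5095 ± 198 to 2417 ± 78 normalised counts. Of the same kind were an intron of FLVCR1, a heme exporter gene (308 to 339 tags in B-K562), a region upstream of SLC25A37, which encodes the mitochondrial iron importer mitoferrin (231 to 251 tags), and an intron of ABCB10, a mitochondrial transporter of erythroid cells (202 to 252 tags). RNA of ABCB10 fell by 1.70, whereas that of SLC25A37 and FLVCR1 was lower by 0.59 and 0.32, under the size threshold. Regions upstream of C21orf58 (205 to 263 tags) and DIP2A (173 to 214 tags) were lost in the same way, while RNA of both was higher in G-K562, by 0.42 and 0.97, under the size threshold.

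In the opposite direction, the start of PTPN6, which encodes the phosphatase SHP-1 of blood cells, had 209, 196 and 224 tags in G-K562, 93 to 107 in V-K562 and no peak in B-K562, and its RNA rose by 1.68. The start of WARS, the tryptophanyl-tRNA synthetase gene, had 158, 149 and 187 tags in G-K562 and no peak in B-K562, and its RNA rose from 8202 ± 95 to 57084 ± 1452. A region in FNBP1 (141 to 185 tags in G-K562) had no peak in either other line, and FNBP1 RNA rose by 2.73. The same held for a region near LOC101929705 (150 to 174 tags), while regions near MRPL23-AS1 and in GSE1 had 36 to 55 tags in the V-K562 libraries with a peak. RNA of MRPL23-AS1 and LOC101929705 rose by 4.85 and 2.63, and that of GSE1 was higher by 0.21, below the size threshold.

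The calls were unevenly spread over the genome's features. A summit within 100 bp of a protein-coding transcription start was the least often called: of 8010 such regions 206 were higher (2.57%) and 177 lower (2.21%). Of 7563 regions up to 5 kb upstream of any such start, alternative starts inside a gene included, 404 were higher (5.34%) and 604 lower (7.99%). Of 15649 intronic regions 963 (6.15%) were higher and 2324 (14.9%) lower, and of 17793 intergenic regions 1117 (6.28%) and 2268 (12.7%). Start regions were thus 15.6% of the regions tested but 7.26% of the higher and 3.17% of the lower calls. Exonic regions (119 higher and 171 lower of 1847) and regions within 1 kb downstream of a gene (28 and 42 of 457) lay near the shares over all regions. Among regions with a peak in all 6 libraries, 55 of 7023 start regions were higher and 71 lower, and of 7232 intronic regions 251 were higher and 761 lower. The larger number of higher than of lower calls at start regions thus rests on regions with a floored value. Over all start regions it was seen without the scaling (340 and 128) and under the other scalings tried (184 to 242 higher and 153 to 176 lower).

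The letters AGATAA set the lower regions apart from the rest. Within 300 bases around the summit, 58.4% of the lower regions held at least 1 match, against 13.6% of the higher regions and 21.0% of all regions tested. The share of regions called lower was 5.73% without a match, 26.5% with 1 match, 44.4% with 2 and 55.0% with 3 or more, and the share called higher went from 6.05% to 4.05%, 1.69% and 0.398%. Among regions with a peak in all 6 libraries the shares called lower were 2.86%, 18.7%, 39.8% and 53.8%. These are descriptions of the called regions, without a test.

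The share called lower was larger with a match in each of the 6 kinds of location. Of start regions with a match 13.6% were lower, against 1.71% without; of upstream regions 30.3% against 4.31%; of exonic regions 30.9% against 4.66%; of intronic regions 31.2% against 8.34%; of downstream regions 32.0% against 4.71%; and of intergenic regions 30.4% against 6.72%. A match lay within 50 bp of the summit in 33.5% of the lower, 4.12% of the higher and 9.94% of all regions. The median log2 difference of the 10793 regions with a match was -0.48, and -0.50 to -0.41 relative to all regions under every scaling tried, including scaling within 20 bins of GC content. The GC content of the regions and the log2 difference had a Spearman rho of 0.155 across regions, which are not independent.

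AP-1 letters were more frequent in the higher regions. TGAGTCA was present in 25.7% of the higher, 13.9% of the lower and 15.3% of all regions. With 2 or more matches, 11.7% of 959 regions were higher and 5.21% lower. With 1 match the shares were 8.94% and 10.6%, and without a match 4.85% and 11.1%. Among regions with a peak in all 6 libraries, 1 match went with larger shares both ways, 5.74% higher and 8.25% lower, against 2.12% and 5.66% without. With 2 or more matches these shares were 8.61% and 3.96%. Where AP-1 letters occurred without a GATA match, 10.9% of 5883 regions were higher and 6.10% lower, and where both were present 4.52% of 1968 regions were higher and 21.3% lower. The ETS letters AGGAAGT were found in 15.4% of the higher, 9.31% of the lower and 10.4% of all regions, and the RUNX letters TGTGGTT in 12.2%, 8.06% and 7.62%. The letters CAGGGGGCG, part of the CTCF motif, were scarcer in both kinds of called region (1.23% and 0.537%) than in all regions (2.76%), and the CACCC letters CCACACCC were at 4.30%, 5.46% and 4.33%. The GC element of WT1, GCGGGGGCG, was at 1.66% of the higher, 0.430% of the lower and 2.94% of all regions. Start regions, where calls were rare, held 702 of the 1510 regions with a match. Outside the start and upstream classes the element was in 0.943% of the higher, 0.166% of the lower and 0.971% of all regions. The cause of its scarcity in called regions was not tested.

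**Figure D3:**
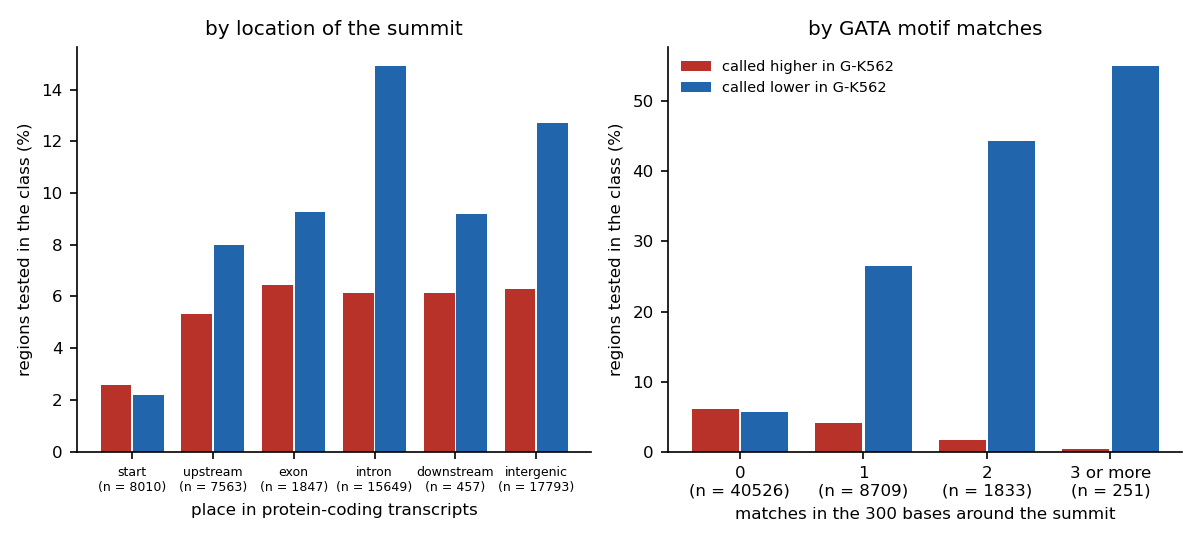
Bars give the percent of tested regions in each class that were called higher (red) or lower (blue) in G-K562, by the summit's location in protein-coding transcripts (left) and by the number of GATA letter matches in 300 bases (right). The blue bars rise from 5.73% without a match to 55.0% with 3 or more, and start regions have the shortest bars on the left.

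Lower calls were more frequent near genes of the erythroid programme than over all regions, although most of the regions were not called. Of 47 regions closest to erythroid transcription factor genes, 14 were lower and 0 higher, with a median log2 difference of -0.48; 8 of the 11 genes had a lower region, and none of their 6 start regions was called. For comparison, a lower call was made in 10.9% of all regions and the median of all regions was 0. The largest of these falls lay downstream of GATA1, the master regulator of red cell genes, on chromosome X (131, 107 and 150 tags in B-K562, 32, 28 and 28 in G-K562, 69 to 81 in V-K562; -2.31 ± 0.16, adjusted p = 0.00011). A region upstream of GATA1 held 127, 100 and 117 tags against 50, 57 and 62 and fell by 1.23, and 2 further GATA1 regions were lower. The 5 Mb window of GATA1 on chromosome X had a median of -0.53 over 123 regions, with 26.0% called lower. Taken relative to the windows, the 14 calls became 12: the GATA1 regions at -1.23 and -1.46 moved to -0.70 and -0.94, under the threshold, and the largest to -1.78.

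Other called regions of the list, named after their values were seen, lay near TAL1, GFI1B, ZFPM1, IKZF1, MYB, LDB1 and NFE2. At GFI1B, a GATA1-induced repressor, B-K562 had 81, 104 and 84 tags and G-K562 35 and 31 tags in the 2 libraries with a peak. RNA of 6 of the 10 genes tested fell, among them KLF1 by 2.36 and TAL1 by 1.04 on the log2 scale, while GATA1 RNA was lower by 0.78, under the size threshold, and MYB RNA was higher by 0.36. The called region of MYB was lower (-1.88), so that its RNA and its region differed in direction.

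Erythroid membrane protein genes showed the largest share of lower start regions. Of their 67 regions 24 were lower and 2 higher, with a median of -0.54, and 9 of 15 start regions were lower, against 2.21% of all start regions. The starts of RHCE and RHAG, which encode Rh blood group proteins, held 111, 105 and 102 against 26, 26 and 27 tags (-2.18 ± 0.13) and 163, 150 and 127 against 37, 48 and 47 tags (-1.93 ± 0.15). The starts of KEL (-1.73), SPTB (-1.73), ANK1 (-1.06), EPB42 (-2.26), GYPB (-2.34) and GYPE (-2.17) were lower too. No G-K562 library had a peak at EPB42 or GYPB, 1 had a peak at GYPE and 2 at SPTB. RNA fell for 11 of the 15 genes, with a log2 difference of -4.50 for SPTB, the beta chain of spectrin. The largest fall of the list was an intron of EPB41 (107, 105 and 114 against 21, 21 and 22 tags, -2.51 ± 0.14), whose RNA did not pass the test (0.05, adjusted p = 0.44). Introns of KEL and TFRC each held a region called higher, with 68 to 76 and 59 to 82 tags in G-K562, and only 1 B-K562 library had a peak there, of 17 tags at TFRC. Glycophorin and Rh genes have near-identical copies, so reads could be lost or split between them.

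Of 16 regions closest to globin genes 6 were lower (37.5%, against 10.9% of all regions) and 1 higher (6.25%). None of the 6 had a peak in any G-K562 library, so these calls rest on the floor. Among the 8 globin regions with a peak in all 6 libraries, 0 were lower and 1 was higher. RNA of all 8 globin genes tested fell, with a median of -3.13. The start of HBA1, an alpha globin gene with a near-identical copy, had 86, 80 and 106 tags in B-K562 and no peak in G-K562. A region assigned to HBE1 and labelled intronic (chr11:5284556-5285050) had 115, 108 and 126 tags in B-K562 and no peak in G-K562 or V-K562. That label rests on any annotated protein-coding transcript, and which HBE1 transcripts cover the region was not examined. A region upstream of HBZ had 100 to 109 tags in B-K562 and no peak in G-K562. The region called higher lay near HBG2, a fetal globin gene, with 43, 45 and 28 tags in B-K562, 147, 160 and 166 in G-K562 and 32 to 46 in V-K562 (1.81 ± 0.19, adjusted p = 0.00038). HBG2 RNA nevertheless went from 61469 ± 2023 to 5447 ± 132 normalised counts. The start of AHSP, the alpha globin chaperone, had 42, 39 and 40 tags in B-K562 and no peak in G-K562, and its RNA went from 1643 ± 109 to 6.7 ± 5.1, the largest RNA fall among genes with a called start region.

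Myeloid, megakaryocyte and signalling genes were divided. Of 46 regions of myeloid and megakaryocyte transcription factors 5 were higher (10.9%, against 5.53% of all regions) and 1 lower (2.17%, against 10.9%), with RNA higher for 5 of 12 genes and lower for 1. The higher regions lay at SPI1 (the myeloid factor PU.1), MEIS1, ERG and RUNX2, all with differences between 1.06 and 1.17, and the lower at CEBPB (76, 50 and 76 tags in B-K562 against 28 tags in 1 G-K562 library). SPI1 had 2 higher regions, and the call of the larger (26 and 34 tags in 2 B-K562 libraries, 71, 60 and 62 in G-K562) was lost when any 1 library but the third of B-K562 was left out. CEBPB RNA was higher in G-K562 by 1.27. Of 25 regions of megakaryocyte and platelet genes 4 were lower (16.0%) and 1 higher (4%). The largest was upstream of ITGA2B, the platelet integrin alpha IIb, with 154, 148 and 126 tags in B-K562, 91 to 124 in V-K562 and no peak in G-K562, and its RNA fell by 1.08, which became 0.92 without the third G-K562 library. The ITGB3 intron called higher had 28, 67 and 48 tags in G-K562 and no peak in B-K562, a call that was lost when any 1 library other than the first of G-K562 was left out.

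Of 32 regions of AP-1 and EGR factor genes 2 were higher (6.25%, near the 5.53% of all regions) and 1 lower (3.12%, against 10.9%). RNA was higher for 7 of 14 genes. The start of EGR3 had 67, 72 and 91 tags in G-K562 and 42 in 1 B-K562 library, a call lost without any 1 library except the first of B-K562, and an intron of BATF had 51, 41 and 60 tags in B-K562 and no peak in G-K562. Interferon-stimulated genes had 5 higher regions (20%, against 5.53% of all regions) and 1 lower (4%, against 10.9%) among 25. All 5 higher regions were among their 13 start regions, against 2.57% of all start regions. The start of IFIH1, the RNA sensor MDA5, held 17, 15 and 16 tags in B-K562 and 60, 49 and 71 in G-K562 (1.6 ± 0.17, adjusted p = 0.00046), and its RNA rose by 2.44. The others were 2 start regions of IFI16 and those of OAS3 and IFI27, while the IFI35 intron called lower had 30 to 40 tags in B-K562 and no peak in G-K562. IFI27 lies on chromosome 14 in a 5 Mb window with a median of 0.40. Relative to the windows, 4 regions of the list were higher and 1 lower. RNA of 9 of 18 interferon-stimulated genes rose and that of 1 fell.

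The counts of the remaining lists are to be read against 5.53% higher and 10.9% lower over all regions. RNA was higher for 12 and lower for 6 of 38 collagen and laminin genes. For axon guidance genes it was higher for 16 and lower for 5 of 41, and for polycomb group genes higher for 2 and lower for 0 of 27. Collagen and laminin genes had 11 higher (7.97%) and 21 lower (15.2%) of 138 regions, with the largest rise in an intron of LAMB1 (63 to 130 tags in G-K562) and the largest falls, of 2.26 each, in introns of COL25A1 (70 to 88 tags in B-K562) and COL4A2 (74 to 84 tags), neither with a peak in G-K562. Axon guidance genes had 15 higher (9.43%) and 16 lower (10.1%) of 159 regions, led by an UNC5B intron with 248, 186 and 224 tags in G-K562 and 33 and 32 in 2 B-K562 libraries, and by a region upstream of EPHB4 with 120, 134 and 139 tags in B-K562, 49 to 89 in V-K562 and no peak in G-K562. UNC5B, a netrin receptor, had an RNA rise of 2.94. Polycomb group genes had 2 higher (2.90%) and 6 lower (8.70%) of 69 regions, of which 1 of the higher and 4 of the lower lay at JARID2. Its intronic regions moved both ways: 160, 156 and 148 tags fell to 52, 56 and 47 in the first (-1.78 ± 0.12), and 63, 57 and 51 tags appeared in G-K562 in the second.

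Cholesterol synthesis and uptake genes had 2 higher (4.55%) and 4 lower (9.09%) of 44 regions, near the same shares over all regions. RNA was higher for 1 and lower for 6 of 23 of these genes, against 17.4% and 12.5% of all genes tested. The lower regions included an intron of NSDHL, a sterol dehydrogenase gene, with 68, 62 and 44 tags in B-K562 and 32, 24 and 23 in G-K562 (-1.32 ± 0.23), and its RNA was lower by 0.69, under the size threshold. Pre-ribosome genes had 1 higher (2.78%) and 2 lower (5.56%) of 36 regions, although RNA of 16 of 28 of these genes fell. Their called regions included those near UTP4 (1.64) and RRP1B (-1.52), both more than 5 kb from a start. HOX genes had 2 higher (7.41%) and 0 lower of 27 regions, with 44 to 55 tags in G-K562 and no peak in B-K562 upstream of HOXB4. RNA was higher for 10 and lower for 1 of 23 HOX genes.

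Zinc finger genes on chromosome 19, most of which encode KRAB repressors, had more lower than higher calls, although most of their regions were not called. Of 253 regions 43 were lower and 2 higher with a median of -0.20, also relative to all regions under each scaling (-0.21 to -0.16). Among the 183 of them with a peak in all 6 libraries, 14 were lower and 1 higher. Over all 29250 such regions, 5.95% were lower and 2.69% higher. Most of the 43 lower calls thus rest on at least 1 library without a peak. Of their 161 start regions 26 were lower (16.1%) and 1 higher (0.621%), against 2.21% and 2.57% of all start regions. The window of 20 to 25 Mb on chromosome 19 had a median of -0.67, with 16 of its 42 regions lower. Relative to the 5 Mb windows, 39 of the 253 regions were lower and 2 higher. RNA of 67 of 220 genes fell and that of 9 rose. The start of ZNF607 had 56, 72 and 59 tags in B-K562 and 16 in 1 G-K562 library, and its RNA went from 506 ± 17 to 14.3 ± 1.2. The largest fall lay upstream of ZNF787 (124, 142 and 105 tags in B-K562 and no peak in G-K562), and the largest rise upstream of ZNF888 (1.09 ± 0.17, below the threshold of 1 at 0.97 without the first G-K562 library).

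**Figure D4:**
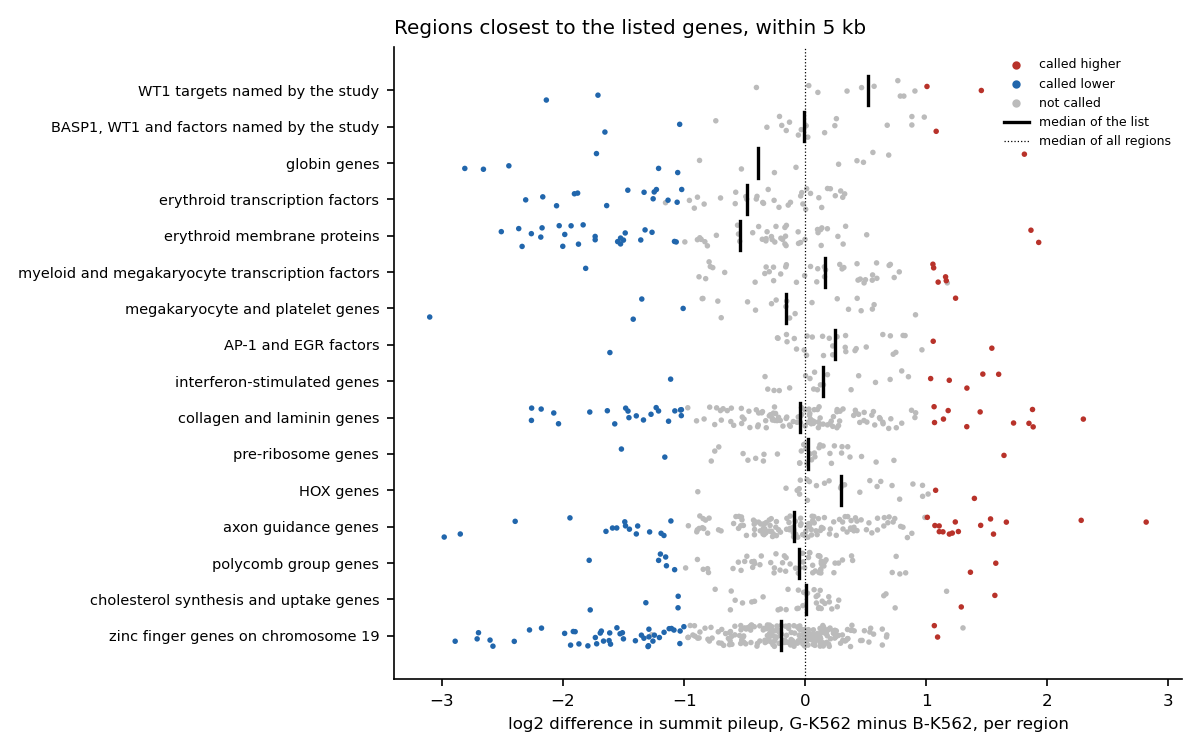
Each point is a tested region placed at its log2 difference, G-K562 minus B-K562, in the row of the list that its closest gene belongs to, red where called higher and blue where called lower. The median bars of the erythroid lists lie at -0.48 and -0.54, left of the dotted median of all regions.

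The WT1 target genes that the study follows were read as counts of regions. AREG, which encodes the EGFR ligand amphiregulin, had 2 regions, neither called: its start held 54, 38 and 38 tags in B-K562, 88, 68 and 104 in G-K562 and 53 to 69 in V-K562. The values of the lines did not overlap, and the log2 difference was 0.77 ± 0.20 (adjusted p = 0.021), under the size threshold. AREG RNA rose from 54, 57 and 54 to 457, 479 and 468 normalised counts. EREG, which encodes epiregulin, had 2 regions, both higher. The first, 104 bp from the start, held 56, 65 and 39 tags in G-K562, 20 to 24 in V-K562 and 15 in 1 B-K562 library (1.46 ± 0.22, adjusted p = 0.002), and the second, in an intron, rose by 1.01 ± 0.25, a call that was lost in 3 of the 6 comparisons without 1 library, those without the third of B-K562 and the first or second of G-K562, and that was 0.78 relative to its 5 Mb window.

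At VDR, the vitamin D receptor gene, 0 of 5 regions were called. Its start held 60, 62 and 51 tags in B-K562, 83, 55 and 70 in G-K562 and 43 to 54 in V-K562, values that overlapped (0.03 ± 0.18, adjusted p = 0.91). An intronic region with 29, 49 and 31 tags in G-K562 and no peak in B-K562 had a difference of 0.91 (adjusted p = 0.014). VEGFA, the vascular endothelial growth factor gene, had 2 of 5 regions lower. A region 306 bp from the nearest start held 63, 85 and 71 tags in B-K562 and no peak in G-K562 or V-K562 (-2.14 ± 0.18, adjusted p = 0.00018). At the start itself, 95, 74 and 90 tags in B-K562 stood against 75 tags in 1 G-K562 library and no peak in the others, so the call (-1.71 ± 0.52, adjusted p = 0.037) rests on libraries without a peak, and was lost when any 1 library other than the second of G-K562 was left out. VEGFA RNA rose from 3490 ± 60 to 11766 ± 290, against the direction of both called regions.

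WT1 itself had 4 regions, of which 1, 3428 bp from the nearest start, was higher (37, 32 and 33 against 77, 75 and 106 tags, with 26 to 33 in V-K562, 1.08 ± 0.17, adjusted p = 0.0021). Without the third G-K562 library the difference was 0.94, and relative to its 5 Mb window 0.96, both under the threshold. A second WT1 region, 457 bp from a start, held 60, 74 and 86 against 153, 158 and 159 tags (0.88 ± 0.15, adjusted p = 0.003), under the size threshold. WT1 RNA rose by 1.17. The BASP1 gene had 1 region, over its coding exon, with 57, 47 and 46 tags in B-K562, 63, 50 and 63 in G-K562 and no peak in V-K562. The BASP1 constructs hold the same coding sequence, so reads of the gene and of a construct cannot be told apart there. The 2 lower regions of HDAC1, the deacetylase that BASP1 recruits, lay in introns, the larger with 60, 63 and 66 tags in B-K562 and 32 and 20 in 2 G-K562 libraries (-1.65 ± 0.24), and HDAC1 RNA was lower by 0.54.

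Called changes at transcription starts were mostly in the direction of the gene's RNA. Over all genes tested by RNA-seq, 2707 were higher in G-K562 and 1938 lower. Of 185 genes with a start region called higher, 112 had higher RNA (60.5%) and 6 lower (3.24%), and the median RNA log2 difference was 1.55. Of 165 genes with a start region called lower, 100 had lower RNA (60.6%) and 9 higher (5.45%), with a median of -1.63. Genes whose tested start regions were not called had higher RNA in 12% and lower RNA in 9.68%. Over all 7566 start regions with a tested gene, called or not, the ATAC-seq and RNA-seq differences had a Spearman rho of 0.288, and over the 6716 with a peak in all 6 libraries 0.231, across regions that are not independent.

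The same counts were made away from the start, and the difference from start regions was not tested. Genes with higher regions upstream had higher RNA in 41.6% of 308, and genes with higher regions in exons or introns in 36.1% of 559. Genes with lower regions upstream had lower RNA in 23.9% of 465 and higher RNA in 10.8%, and those with lower regions in exons or introns in 18.9% and 11% of 1331. Genes whose tested regions were not called had higher RNA in 16.6% and lower RNA in 9.33% upstream, and in 20.9% and 9.53% in exons or introns. Both assays were made on the same lines, so that these shares describe the pair of pools. Of 4020 genes with a called region within 5 kb, 1260 had only higher, 2389 only lower and 371 both kinds.

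The RNA extremes among genes with a called start region follow. EFEMP1, a fibulin of the extracellular matrix, had 42, 64 and 58 tags in G-K562 and no peak in B-K562, and its RNA went from 1.7 ± 1.6 to 1055 ± 100. MUC4, a membrane mucin, had 53, 46 and 53 tags and no peak, with RNA from 7.5 ± 1.6 to 1905 ± 324. COL15A1, a basement membrane collagen, held 24, 19 and 33 against 47, 62 and 80 tags (1.07 ± 0.27, adjusted p = 0.018), and RNA rose from 270 ± 23 to 19218 ± 2233. This start call was lost in 4 of the 6 comparisons without 1 library, those without the first or second B-K562 and without the second or the third G-K562 library. PCLO, a presynaptic protein gene, completed the 4 with 44, 87 and 71 tags in G-K562 and no peak in B-K562, and RNA from 1.0 ± 1.0 to 106 ± 14.

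Among the falls, besides AHSP and ZNF607, the start of FAM84A had 43, 45 and 46 tags in B-K562 and no peak in G-K562 with RNA from 116 ± 24 to 0.3 ± 0.6. The start of DCAF4L2 had 58, 67 and 76 tags and no peak, with RNA from 2697 ± 29 to 31.3 ± 5.5. V-K562 had a peak of 24 to 34 tags at the starts of AHSP and FAM84A in 2 of its libraries each, 47 to 72 tags at ZNF607 in all 3, and no peak at DCAF4L2.

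Other start regions had measured values in nearly all libraries. The start of DAB2 (chr5:39424723-39425447), an endocytic adaptor, held 318, 287 and 272 tags in B-K562, 43, 43 and 41 in G-K562 and 123 to 148 in V-K562 (-2.97 ± 0.10, adjusted p = 3.8e-05), and its RNA went from 3346 ± 104 to 290 ± 19. The start of TLE4, a Groucho corepressor, held 185, 162 and 151 against 39, 48 and 55 tags, and its RNA fell by 4.44. TCP11L2 and TXNDC2 were lower at the start by 2.17 and 2.03 while their RNA was higher, by 1.13 for TCP11L2 and by 0.67 for TXNDC2, and HIST1H2BA, a testis histone gene with a log2 difference of -2.01 at its start, was hardly expressed.

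The higher starts were those of HPSE, the heparan sulfate-cleaving heparanase, with 24 and 17 tags in 2 B-K562 libraries and 104, 115 and 133 in G-K562 (2.36 ± 0.20), and RARB, the retinoic acid receptor beta, with 35, 19 and 21 against 134, 150 and 155 (2.33 ± 0.23). Their RNA rose by 4.04 and 2.41. CALB1, which encodes the calcium-binding protein calbindin, held 55, 29 and 34 against 199, 147 and 170 tags, and its RNA rose from 1269 ± 92 to 32669 ± 3438. SPAG16 rose by 1.94 at the start with an RNA rise of 3.02. RAB3C had 25, 17 and 20 against 131, 111 and 125 tags at the start and RNA of at most 3.1 normalised counts in every library.

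**Figure D5:**
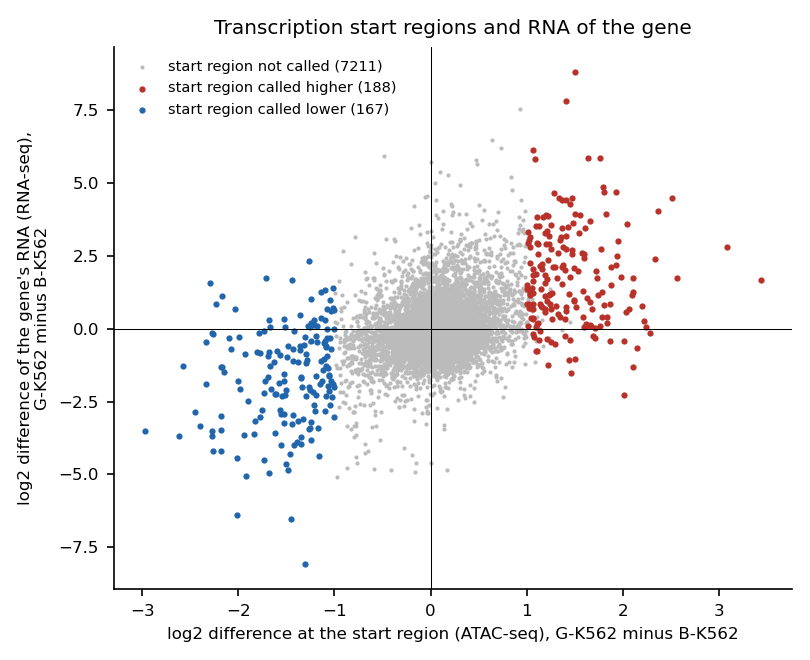
Each point is a start region whose gene was tested by RNA-seq, with the ATAC-seq log2 difference on the x axis and the RNA-seq log2 difference on the y axis, both G-K562 minus B-K562. The 188 regions called higher (red) lie mostly above 0 and the 167 called lower (blue) mostly below.

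Some genes carried several called regions. Their counts stand against 5.53% higher and 10.9% lower over all regions, and the genes were picked for these counts. GSE1, a coiled-coil protein gene, had the most higher regions, 9 of 58, beside 3 lower. ITPR1, an endoplasmic reticulum calcium channel, had 6 higher and 3 lower of 18, and the glypican genes GPC5 and GPC6, neighbours on chromosome 13, had 6 of 14 and 5 of 13, with 0 lower. GPC6 RNA rose by 2.0, and that of GPC5 was too low to be tested. KCNQ1 had 5 of 12, and 8 genes in all had at least 5 higher regions. KAZN, with 9 lower and 1 higher of 36, had the most lower regions, followed by SND1 with 7 of 17, and 9 genes in all had at least 6. Among them were ARHGAP6, ASTN2 and FYB, a haematopoietic adaptor gene with 6 of its 7 regions lower. RNA of FYB was lower by 0.97, just under the size threshold, and that of SND1 higher by 0.91. The 5 Mb windows of several of these genes were shifted in the same direction, with medians of 0.34 at GPC5 and GPC6, -0.46 and -0.36 at KAZN, -0.63 at ARHGAP6 and -0.48 at ASTN2. Relative to their windows GPC5 had 4 higher regions, GPC6 2 and KCNQ1 3, and KAZN had 5 lower regions, ARHGAP6 1, ASTN2 3 and FYB 4, whereas the counts of GSE1 and ITPR1 and the 7 lower regions of SND1 did not change. Long genes offer more regions, and these spans run from 169 to 1469 kb.

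Some chromosome segments had shifted medians. Of 521 windows of 5 Mb with at least 20 regions, 14 had a median above 0.3 and 44 below -0.3, and 6 of the 14 lay on chromosome 14. Beyond 70 Mb on that chromosome the median of 791 regions was 0.45 with 14.4% called higher and 5.69% lower, and the median RNA difference of its 203 genes was 0.61, whereas before 70 Mb the medians were 0.00 and -0.01. The windows beyond 70 Mb were not alike: that of 85 to 90 Mb had a median of 0.16, with 1 region called higher and 6 lower of 31. GPR132, WARS, BATF and IFI27 lie in the distal segment. Chromosome X had medians of -0.20 by ATAC-seq and -0.28 by RNA-seq. Its windows were not alike either, with medians from -0.71 at 15 to 20 Mb to 0.25 at 135 to 140 Mb. Outside chromosome X and the distal segment of chromosome 14 lay 2694 of the higher and 5356 of the lower regions. Other windows there were shifted too. On chromosome 10 the windows from 0 to 40 Mb had medians from -0.58 to -0.30. On chromosome 4 the windows between 150 and 190 Mb with at least 20 regions had medians from -0.58 to -0.35. The 14 windows above 0.3 held 168 of the higher calls, and the 44 below -0.3 held 683 of the lower calls. Whether the copy number of these segments differs between the pools was not tested.

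V-K562 gave a further level for the called regions. Of the 5586 lower regions 83.1% had a peak in all 3 V-K562 libraries, and the V-K562 mean was nearer to B-K562 than to G-K562 in 81.7%. Of the 2837 higher regions 59.4% had a peak in all 3 V-K562 libraries and 17% in none, and V-K562 was nearer to G-K562 in 49.5%. Over all tested regions 72.6% had a peak in all 3 V-K562 libraries and 8.36% in none, and V-K562 was nearer to G-K562 in 40.2%. Among called regions with a peak in all 6 libraries the V-K562 mean was nearer to B-K562 in 92.2% of 1739 lower regions and nearer to G-K562 in 57.9% of 788 higher regions. Among all higher regions V-K562 lay above both lines in 15.6% and below both in 6.06%. For the lower regions these shares were 35.8% and 0.949%, and over all tested regions 35.1% and 28.6%. Examples of higher regions are GPR132, where V-K562 was near B-K562, and SCN9A and ERN1, where it lay between the lines.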

How the data were processed

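ATAC-seq and RNA-seq were made from the same 3 lines in 3 libraries each. The authors aligned the ATAC-seq reads to GRCh38 by BWA-MEM, kept unique alignments without duplicates, sampled all libraries to equal tags and ran MACS2 on each library. The deposited signal is the pileup of tags at each peak's summit. It is not a read count, so no count model was used, and the depth behind a region without a peak is unknown. The deposited RNA-seq values are scores in the sense of rounded normalised counts, which the authors obtained by dividing Subread counts by DESeq2 size factors in 2 separate tables. The tables also hold fold changes and p-values of the authors' comparisons, which were not used.

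Overlapping intervals of the 6 libraries were merged, and the highest summit pileup per library was kept. Libraries were scaled by a trimmed mean of log ratios (30% of ratios and 5% of levels trimmed) over regions with a peak in all 6, and values below 17 tags, or without a peak, were set to 17. limma 3.58.1 in R 4.3.3 was fitted with a trend to log2(value + 1), with Benjamini-Hochberg adjustment over the 51319 regions. RNA values of B-K562 were multiplied by 1.02, the ratio of the V-K562 libraries that both tables hold, and 15521 genes that reached 10 in 3 or more of the 9 libraries were tested in the same way. The offset on the log2 scale makes the fitted differences of low regions and genes smaller. The floor understates a difference where the true value lay below 17 tags. It overstates a difference where a library without a peak had more than 17 tags.

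Each region's location was taken from protein-coding transcripts of GENCODE v44, with the start class first, then upstream, exon, intron and downstream. Its gene was the closest within 5 kb by the exons in the RNA-seq tables, which gave a gene for 37216 of the tested regions; 397 entries of many copies or implausible span were left out. Reads that map to several places are not in the values. Interval starts were read as counted from 0.

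The regions named were those with the largest differences with a peak in all 6 libraries (8 per direction), the largest pileups with a peak in 1 line only (6), the largest differences at starts (6), the genes with most called regions (5), the regions of AREG, EREG, VDR, VEGFA, BASP1 and WT1, the largest call of each gene list per direction, and the start regions with the largest RNA differences (4). Further list members were named after their values were seen. The members and lists were chosen with earlier results of these data known. The fit was tested on simulated data with known differences. Other scalings, floors, filters, offsets, values, merging and libraries were tried. A few items that these rules select are not reported here.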

Additional observations from a re-analysis of the deposited data

How the results depend on the processing

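The direction of the named regions rarely depended on the processing, whereas the counts depended on the floor, the filter and the size criterion. With a floor of 10 tags 5260 regions were higher, and with a floor of 25 tags 1545 were higher and 3674 lower. Where a peak was required in all 6 libraries, 790 were higher and 1742 lower, since fewer regions were tested. With no criterion on size 8623 were higher and 10590 lower, and by RNA-seq 5907 genes were higher and 6283 lower. With at least 10 in each of the 9 libraries, 1712 genes were higher by RNA-seq. Without 1 library, 2544 to 2875 regions were higher and 5378 to 5641 lower. With the replicate block 2907 regions were higher and 5607 lower, and 2709 genes were higher and 1937 lower by RNA-seq. The replicate numbers did not pair the libraries: deviations of same-numbered ATAC-seq libraries correlated at 0.062, 0.039 and -0.0061, and the block changed none of the calls of the 79 named called regions. Of these 79, a floor of 25 tags ended 12 calls, mean pileup 5, no filter 6, an offset of 5 ended 3, window centring 2, scaling within GC bins 1 and a fit of all 9 libraries 1, and leaving out 1 library ended 4 to 6; only 36 could be tested with a peak in all 6. The reversed differences were those near 0. At the VDR start the value became -0.03 within GC bins, -0.11 with window centring, -0.04 with mean pileup, and between -0.11 and 0.17 without 1 library, below 0 (-0.05 and -0.11) without the last B-K562 or the first G-K562 library. At BASP1 it became -0.07, -0.16 and -0.02 under the same 3 settings, and between -0.05 and 0.1 without 1 library, below 0 in 4 of these 6 comparisons (-0.03, -0.04, -0.05 and -0.03). The region 514 bp from the VEGFA start became -0.02 with mean pileup. The cause of these changes was not tested.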
